A study of Arabidopsis thaliana with 6 samples.

Results

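Cytochrome P450 monooxygenases make up a large gene family in Arabidopsis thaliana, and its genes were set against domains of 2 chromatin marks, H3K27me1 (histone H3 carrying 1 methyl group on lysine 27) and 5mC (methylated cytosine in DNA). Members were the protein-coding genes of the reference gene table whose symbol is CYP followed by a number, a letter and a number, as in CYP71B16. This gave 215 of 27444 protein-coding nuclear genes, 205 of them on chromosome arms and 10 in the gene-poor pericentromeres. The rule left out 4 loci, which are not analysed here. Members fell into 60 subfamilies (the name up to its second letter, as in CYP705A) of 40 families, and 28 subfamilies had 1 member.

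All material was young leaf tissue of the accession Columbia-0 (Col-0), raised on soil in short days of 8 h light and 16 h dark at 22.5 °C, and the labels name no mutation or further treatment. The labels list 2 samples of H3K27me1 chromatin immunoprecipitation (ChIP), 2 samples of immunoprecipitated methylated DNA (MeDIP) and 2 MeDIP input samples. The deposited data are 1 list of enriched domains per mark, with 13068 domains and 12706852 reads for H3K27me1 and 12238 domains and 28021211 reads for 5mC. Neither list holds a value per replicate. No replicate error or test between samples could be computed, and every count below describes these 2 lists.

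P450 enzymes hold a heme group and insert oxygen into small molecules, with electrons passed from NADPH by reductases such as ATR1 and ATR2. In plants they make and break down hormones, sterols, cutin and suberin monomers, phenolics and defence compounds, and many arose by tandem duplication, so that close relatives sit side by side. H3K27me1 is placed by the methyltransferases ATXR5 and ATXR6 and is best known from silent heterochromatin, while 5mC marks transposons and, in the CG context, the bodies of many expressed genes.

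P450 genes carried H3K27me1 domains more often than other genes of similar size and place, and 5mC domains about as often or less often. A gene is called touched where at least 1 base lies in a domain and covered where at least 50% of its annotated length does. H3K27me1 touched 76 of 215 P450 genes (35.3%), against 22.2% of the 27229 other protein-coding genes. It covered 21 P450 genes (9.77%), against 7.60% of other protein-coding genes. The closer background was 11581 other genes on the arms with lengths of 1655 to 3392 bp, called like genes here. On the arms, 73 of 205 P450 genes (35.6%) were touched, against 21.5% of like genes, and 20 (9.76%) were covered, against 4.92% of like genes. Of all P450 bases on arms, 12.4% lay in H3K27me1 domains, against 7.44% in like genes. The median length was 2064 bp for P450 genes on arms and 2354 bp for like genes.

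5mC touched 22 of 215 P450 genes (10.2%), against 15.6% of other protein-coding genes, and on arms 20 of 205 (9.76%), against 11.4% of like genes. A single P450 gene was covered by 5mC (0.465% of members and 0.488% of those on arms), against 3.72% of other protein-coding genes and 0.769% of like genes. P450 bases on arms lay in 5mC domains to 1.93%, against 2.36% in like genes. The share of P450 genes touched by 5mC was thus near that of like genes. The covered share rests on 1 gene, and its background depends on the genes chosen. With all protein-coding genes weighted to the lengths and regions of the P450 genes it was 1.64%, and over arm genes of any length it was 1.86%.

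The higher H3K27me1 count lay mainly in narrow domains. With only the domains of at least 1000 bp, 12 of 205 P450 genes on arms were touched (5.85%), against 4.89% of like genes, and 10 were covered (4.88%), against 3.44% of like genes. With only the denser 50% of domains, by reads per kb, 24 were touched (11.7%), against 6.48% of like genes, and 4 were covered (1.95%), against 1.52%. The share covered, which rests on 10 and 4 genes, therefore stood closer to the background in both restricted lists. As a ratio, the share touched stood closer only with domains of at least 1000 bp, and not with the denser domains.

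**Figure D1:**
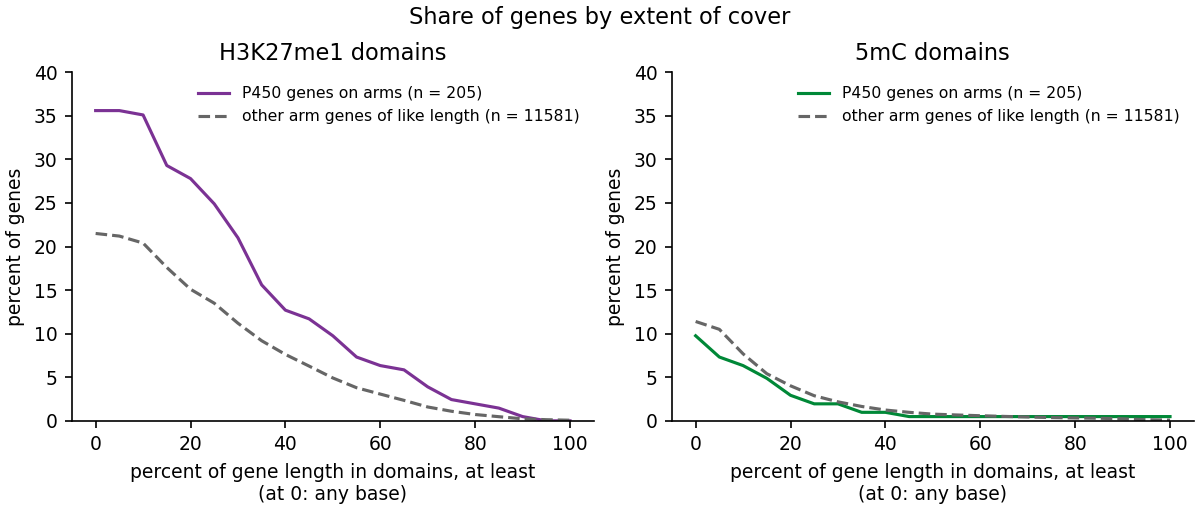
Percent of genes (y axis) with at least a given percent of their length in domains (x axis, where 0 means at least 1 base), for 205 P450 genes on arms (solid lines) and 11581 other arm genes of like length (dashed lines), for H3K27me1 (left) and 5mC (right). The H3K27me1 line of P450 genes starts at 35.6%, against 21.5%, while the 5mC lines start at 9.76% and 11.4% and nearly meet.

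The plot of genes by extent of cover shows the H3K27me1 difference across most of the range. At least 30% of the length was in domains in 43 P450 genes on arms (21.0%), against 11.2% of like genes. At least 70% was in domains in 8 P450 genes (3.90%), against 1.59%. Among touched genes the extent was similar, with a median of 33.2% of the length in P450 genes on arms (quartiles 21.2 and 50.7%) and 31.1% in like genes (18.0 and 48.4%). More P450 genes were thus touched, while a touched P450 gene was filled to a similar extent.

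Most domains were small and lay within the gene. The 86 H3K27me1 domains that touched members included 78 that lay wholly inside a member and none that reached a second member, and 59 of them were at most 600 bp wide. On arms, 77 of 83 such domains lay inside 1 P450 gene (92.8%), against 92.0% of the domains that touched like genes. Their median width of 600 bp equalled that of all 7166 arm domains, and their widest was 1800 bp, against 37800 bp. Their read density, the authors' read count per kb, had a median of 407 (quartiles 362 and 457), against 412 (370 and 477) over all arm domains. For 5mC, 17 of 22 domains that touched arm members lay inside 1 gene (77.3%), against 89.7% for like genes.

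**Figure D2:**
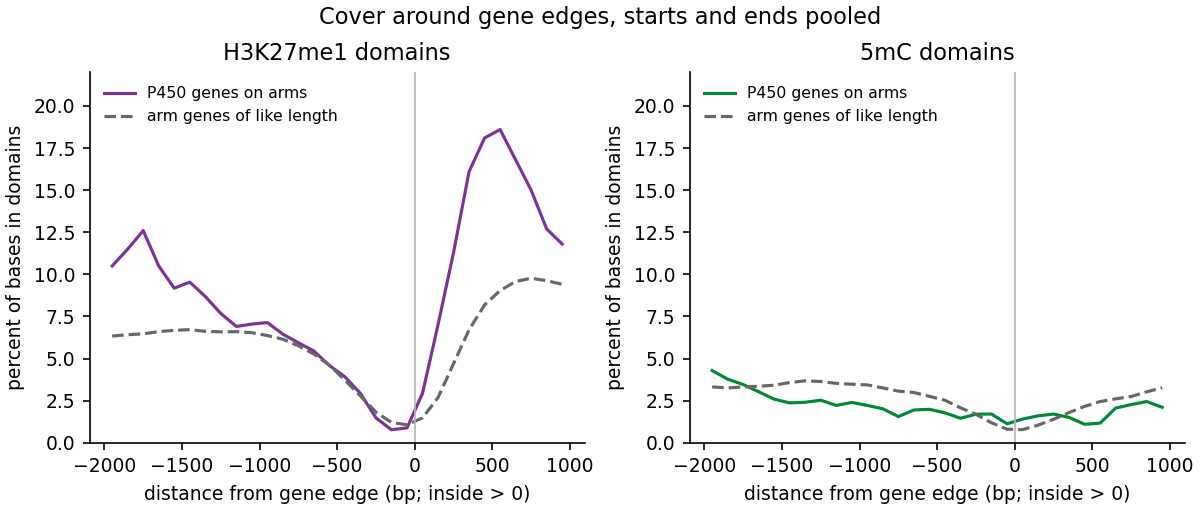
Percent of bases in domains (y axis) by distance from the gene edge in bp (x axis, negative outside and positive inside the gene, in steps of 100 bp, starts and ends pooled), for P450 genes on arms (solid) and arm genes of like length (dashed), for H3K27me1 (left) and 5mC (right). Inside the gene, H3K27me1 of P450 genes peaks at 18.6%, where like genes are at 9.04%.

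Few domains reached gene edges, as the plot by distance from the edge shows. In the last 100 bp outside P450 genes on arms, 0.890% of bases lay in H3K27me1 domains, against 1.07% for like genes. The peak for P450 genes was in the bin centred 550 bp inside the edge, with 18.6% of bases, against 9.04% for like genes, whose own highest value was 9.77% at 750 bp. By 950 bp inside, P450 genes were at 11.8% and like genes at 9.41%. Outside the genes, the sets were close at 950 bp from the edge, with 7.14% for P450 genes and 6.37% for like genes, and farther apart at 1950 bp, with 10.5% for P450 genes and 6.34% for like genes. These flanks include neighbouring P450 genes of tandem clusters. The gene table gives no strand, so that promoters and 3′ ends are not told apart. 5mC stayed between 1.10 and 2.45% inside P450 genes. Near the edge it was above like genes, with 1.41 against 0.781% at 50 bp inside and 1.71 against 1.40% at 250 bp inside. Farther in it was below them, with 1.17 against 2.45% at 550 bp inside. These 5mC values rest on the 20 P450 genes on arms that 5mC touched. The bin at 50 bp held 577 P450 bases in domains, and CYP705A32, with 100% of its length in 5mC, added to it from both ends.

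**Figure D3:**
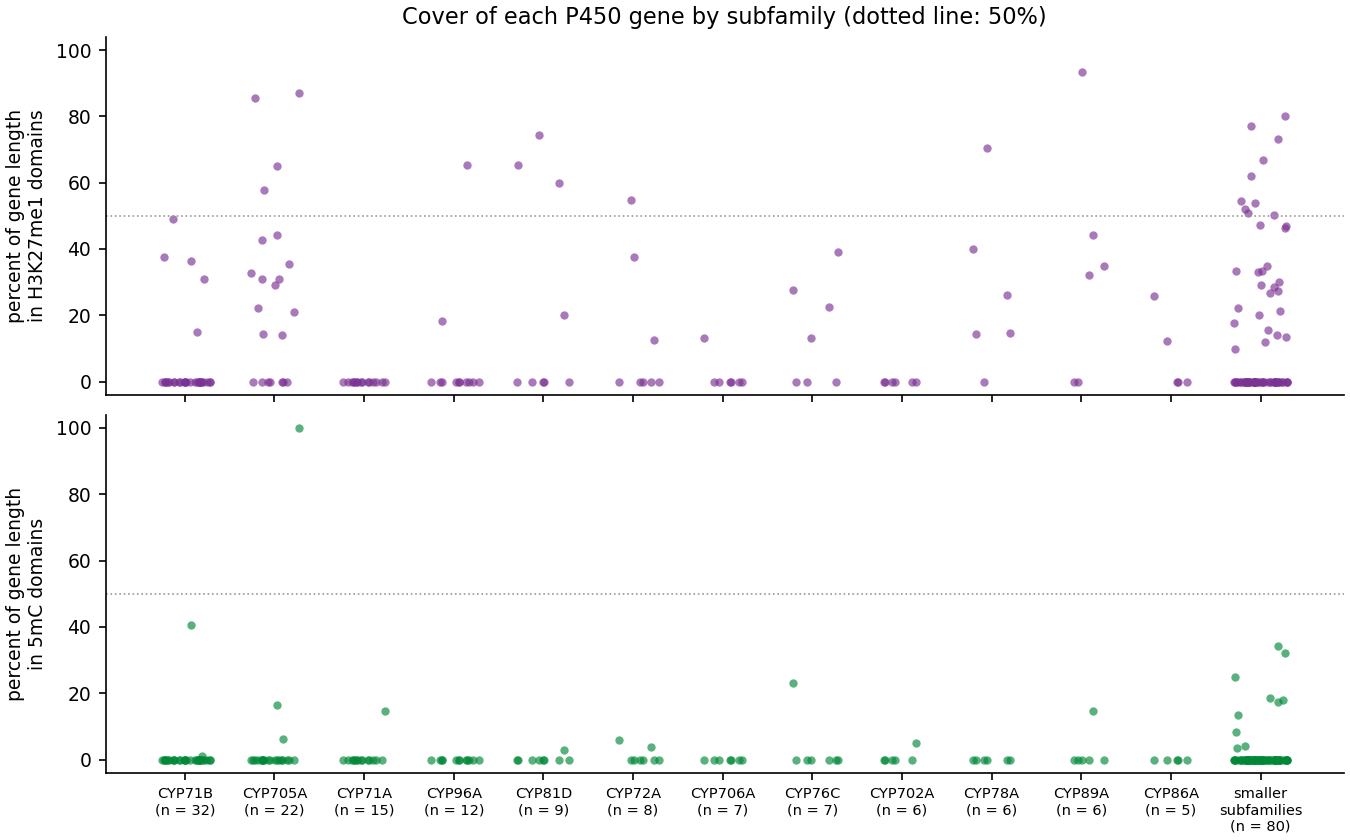
Percent of gene length in H3K27me1 (top) and 5mC domains (bottom) for each of 215 P450 genes, 1 point a gene, in the 12 subfamilies of at least 5 members and in all smaller ones together; the dotted line is at 50%. CYP705A, CYP78A and CYP89A have most points above 0 for H3K27me1, and CYP71A and CYP702A have none.

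Subfamilies differed widely in H3K27me1. The CYP705A subfamily, some members of which act on triterpenes, had 22 members, of which 15 were touched (68.2%) and 4 covered, with 27.7% of its bases in domains. Among the 6 CYP78A genes, which promote growth of organs and seeds, 5 were touched (83.3%), with 26.7% of bases. In CYP89A, 4 of 6 were touched (66.7%), with 31.4% of bases. In CYP76C, which oxidizes monoterpene alcohols, 4 of 7 were touched. At the other end, H3K27me1 touched none of the 15 CYP71A genes and none of the 6 CYP702A genes. CYP71B, the largest subfamily with 32 members, had 5 touched (15.6%) and none covered, with 4.62% of its bases in domains.

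The members of 1 family could thus shift the total. Without the 47 CYP71 genes, 71 of 168 members were touched (42.3%), and without CYP705A, 61 of 193 (31.6%), which was still above the 22.2% of other protein-coding genes. The 80 members of the smaller subfamilies had 31 touched (38.8%) and 10 covered. Among these, CYP710A stood out with 3 of 4 genes covered and 51.4% of its bases in domains. Both CYP712A genes were covered, and so were 2 of 3 CYP98A genes.

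Tandem clusters, runs of members at most 10 kb apart, held 129 members in 39 clusters, and 32 of the clusters were of 1 subfamily. H3K27me1 touched 50 of the clustered genes (38.8%) and 26 of the 86 isolated ones (30.2%). It covered 17 of the clustered genes (13.2%) and 4 of the isolated ones (4.65%). Without CYP705A the touched shares were close, 32.4% of 111 clustered and 30.5% of 82 isolated genes. The covered shares stayed apart, 11.7% of clustered and 4.88% of isolated genes, beside 4.92% of like genes. These are 13 and 4 genes, and several of the 13 are neighbours in the same cluster. All pericentromeric members are among the isolated genes. In 12 clusters no member was touched, in 6 every member was, and in 21 some were and some were not. Among the 90 pairs of neighbours in clusters, both genes were touched in 21, neither in 40, and 1 of the pair in 29. Of the 39 clusters, 21 were of 2 genes, where all or none is a common outcome. Runs of other genes were not counted, so that these cluster and pair counts have no background. Whether neighbouring P450 genes are more alike than other neighbours was not tested. How reads that match several near-identical copies were placed is not given in the sources used here, and its part in these counts was not tested.

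**Figure D4:**
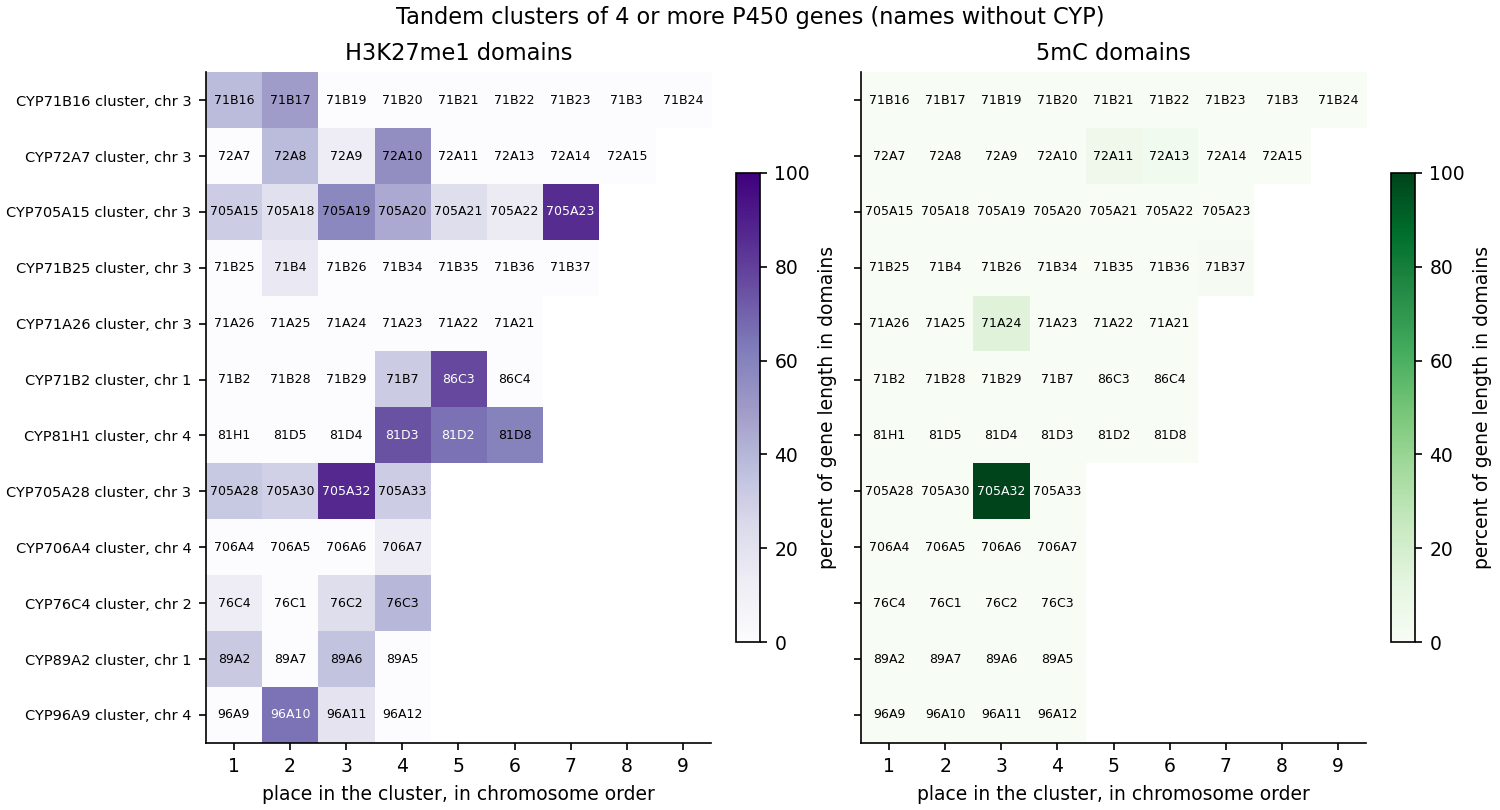
Percent of gene length in H3K27me1 (left) and 5mC domains (right) in tandem clusters of at least 4 P450 genes, 1 row a cluster and 1 square a gene in chromosome order, with darker squares for more cover. All 7 squares of the CYP705A15 row are shaded for H3K27me1, and none for 5mC, where CYP705A32 at 100% is the darkest.

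The cluster of 7 CYP705A genes on chromosome 3, from CYP705A15 to CYP705A23, was the largest in which H3K27me1 touched every member. It held 8 domains between chr3:7011901 and chr3:7030800 (TAIR10), none of which touched more than 1 member. In chromosome order the percent of gene length in domains was 30.8 in CYP705A15, 21.0 in CYP705A18, 57.8 in CYP705A19, 44.2 in CYP705A20, 22.3 in CYP705A21, 14.2 in CYP705A22 and 85.6 in CYP705A23. CYP705A23 (AT3G20140) lay under a domain of 1500 bp with 577 reads, whereas CYP705A22, known from the gravity response of roots, had a domain of 300 bp with 126 reads. The annotated span of CYP705A15 overlaps the pseudogene CYP705A16. H3K27me1 domains held 1794 bp of CYP705A15 and 1761 bp (99.7%) of CYP705A16, so that most of the cover of CYP705A15 is shared with the pseudogene. The spans of CYP705A20 and CYP705A21 overlap each other. No 5mC domain touched any of the 7.

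A second cluster on chromosome 3 had CYP705A28 at 32.7%, CYP705A30 at 29.1%, CYP705A32 at 87.0% and CYP705A33 at 30.8% in H3K27me1. CYP705A32 (AT3G20950) was the only member covered by both marks. Its H3K27me1 domain, chr3:7342801-7344600, held 860 reads, or 478 per kb, and lay wholly within the 5mC domain chr3:7342651-7344750, which held 3157 reads, or 1503 per kb, and took in 100% of the gene. The other 3 genes of that cluster had no 5mC domain. On chromosome 1, CYP705A27 had 65.1% in H3K27me1 domains and 16.3% in 5mC domains, next to CYP705A25 with 14.4% and none. The 3 genes CYP705A1, CYP705A2 and CYP705A3 on chromosome 4 were touched by neither mark. CYP705A1 is known to cleave the triterpene arabidiol in roots.

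The largest cluster, 9 CYP71B genes on chromosome 3, had H3K27me1 at 1 end, with 37.5% of CYP71B16 and 48.9% of CYP71B17, which lay just under the 50% limit. The other 7 genes, from CYP71B19 to CYP71B24, were touched by neither mark. A cluster of 7 CYP71B genes farther along had 14.9% of CYP71B4 in H3K27me1 and 0.907% of CYP71B37 in 5mC. The 6 CYP71A genes from CYP71A26 to CYP71A21 had no H3K27me1, and CYP71A24 had 14.6% in 5mC. Of these 3 clusters, with 22 genes between them, 3 genes were touched by H3K27me1 and none was covered.

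Sharp borders between neighbouring members appeared in the other large clusters. On chromosome 4, CYP81D3 with 74.4%, CYP81D2 with 65.4% and CYP81D8 with 59.9% followed each other, and the adjoining CYP81H1, CYP81D5 and CYP81D4 had none. CYP81D8 is known as a gene induced by stress and foreign chemicals. In the cluster of 8 CYP72A genes on chromosome 3, H3K27me1 lay in 37.7% of CYP72A8, 12.6% of the gibberellin hydroxylase gene CYP72A9 and 54.7% of CYP72A10, while 5mC lay in 5.85% of CYP72A11 and 3.78% of CYP72A13. The marks were thus on different genes there. On chromosome 1, CYP86C3 had 77.2%, the member before it, CYP71B7, had 30.9%, and the other 4 members of that cluster had none. That cluster also holds 3 other coding genes, so that its members are not all next to each other. CYP96A10 had 65.2% between CYP96A9 with none and CYP96A11 with 18.4%.

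Further covered members were isolated genes or sat in pairs. CYP89A3 (AT5G61320) had the highest H3K27me1 value of all members, 93.3%, in the domain chr5:24655201-24656700 with 636 reads. CYP78A10 had 70.5% in 2 domains of 600 bp. The pair CYP93D1 and CYP712A2 on chromosome 5 had 61.9 and 50.2%, and CYP712A1 on chromosome 2 had 50.7%. Just inside the limit were CYP712A2 and CYP712A1, and CYP71B17 was the first outside it.

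5mC overlapped H3K27me1 in part of the family. Both marks touched 11 members, and in 9 of them they shared bases. On arms, H3K27me1 touched 10 of the 20 P450 genes with 5mC, against 445 of the 1317 like genes with 5mC (33.8%). With or without 5mC, it touched 35.6% of P450 genes on arms and 21.5% of like genes. P450 genes thus started from a higher H3K27me1 share, and whether the marks coincide more often in them was not tested. In the other direction, 5mC touched 13.7% of the 73 P450 genes with H3K27me1, against 17.9% of like genes with H3K27me1. H3K27me1 alone touched 63 P450 genes on arms (30.7%), against 17.6% of like genes. 5mC alone touched 10 (4.88%), against 7.53%, and neither mark touched 122 (59.5%), against 71.0%.

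At least 30% of the length lay in both marks in 3 members, CYP705A32, CYP98A8 and CYP71B32. CYP98A8 (AT1G74540) had 80.2% in H3K27me1 and 32.1% in 5mC, and all 600 bp of its 5mC domain lay within the H3K27me1 domain. CYP71B32 had 36.3% in H3K27me1 and 40.5% in 5mC. CYP79A2, which turns phenylalanine into its aldoxime for benzylglucosinolate, had 27.3% in H3K27me1 and 34.2% in 5mC, with 1985 5mC reads per kb. CYP76C6 had 27.7 and 23.1%, and CYP79C2 had 22.1 and 13.4%. The H3K27me1 domain of CYP79C2 was the densest in any member, with 908 reads per kb, which put it at percentile 97.4 of the list. In CYP89A9, which modifies chlorophyll breakdown products, 44.2% lay in H3K27me1 and 14.7% in 5mC, with no base in both.

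In 11 members there was 5mC and no H3K27me1. Among them CYP51G1, a sterol demethylase conserved between plants, fungi and animals, had 18.4% of its length in 5mC domains, CYP81K1 had 17.8% and CYP97B3, of a family of carotenoid hydroxylases, 17.3%. The 5mC domain in CYP81K1 was 300 bp wide and held 3327 reads per kb, at percentile 99.2 of the 5mC list, whereas the one in CYP97B3 held 465 reads per kb, at percentile 0.711. CYP81K1 overlaps another annotated gene, as 39 members (18.1%) do, among them the covered CYP98A8, CYP98A9, CYP86C3, CYP705A27 and CYP712A1. Cover of shared bases is counted for both genes. The 5mC cover of the pericentromeric CYP705A13 was 6.25%.

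**Figure D5:**
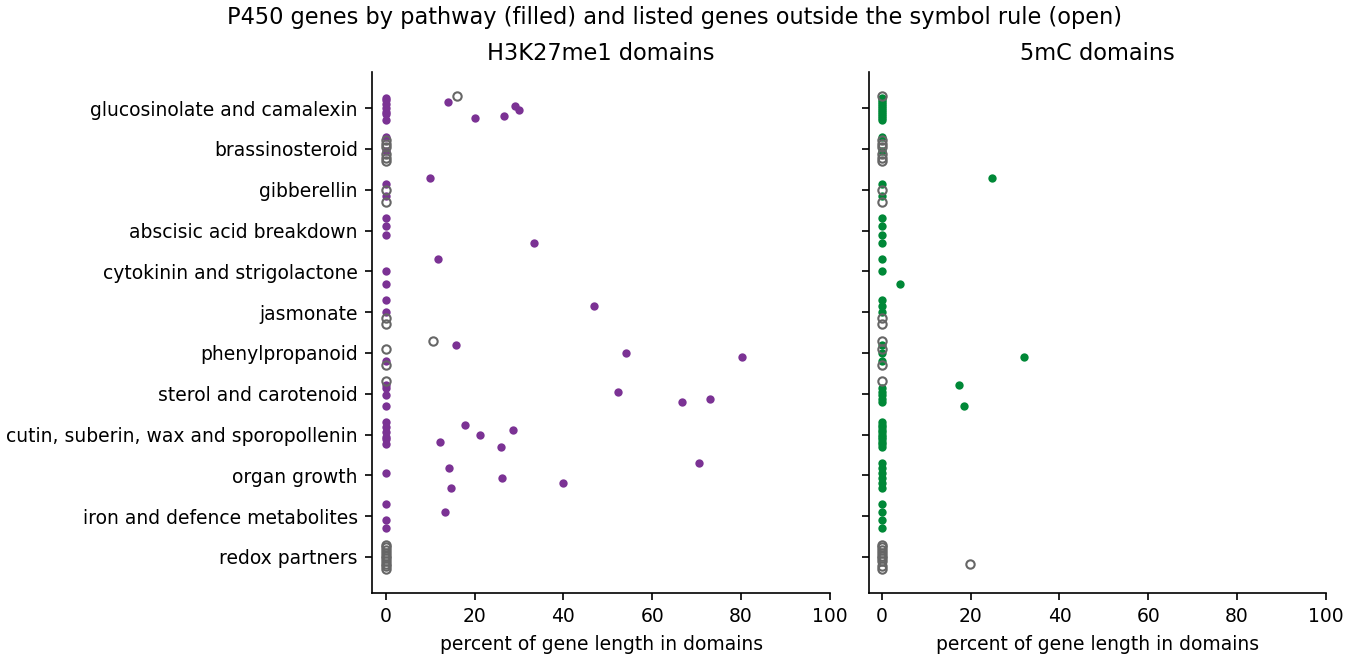
Percent of gene length in H3K27me1 (left) and 5mC domains (right) for P450 genes of known pathways and their redox partners, 1 point a gene, filled for members and open for listed genes outside the symbol rule. The 8 brassinosteroid genes and 10 redox partners all sit at 0 for H3K27me1, while sterol, phenylpropanoid and organ growth genes reach above 50%. Of like genes, 21.5% were touched, so that lists this short leave little room for a lower share.

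Genes of known function were described by 11 pathway lists with 74 genes, 59 of them members and the rest P450 genes known by other symbols. H3K27me1 touched 28 of the 74 (37.8%) and covered 6 (8.11%), and 5mC touched 5 (6.76%). Over all members these shares were 35.3, 9.77 and 10.2%, but these sets are not alike. Among the listed genes outside the symbol rule, H3K27me1 touched only PAD3 and TT7, described below, and 5mC touched none. The H3K27me1 touched share of listed members alone was thus above 37.8%. Sterol and carotenoid genes held 3 of the covered ones. CYP710A1 and CYP710A2, the sterol desaturases that make stigmasterol and, for CYP710A2, also brassicasterol, had 66.8 and 73.1% in domains of 1500 bp at chr2:14539801-14541300 and chr2:14535901-14537400. CYP710A4 had 52.2%, and its neighbour CYP710A3 had none.

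In the phenylpropanoid list, 4 of 7 genes were touched by H3K27me1, beside 35.3% of all members. A difference was not tested on so few genes. The 2 covered ones were CYP98A8 and its neighbour CYP98A9 with 54.0%, which hydroxylate phenolamides of the pollen coat. CYP98A3, a hydroxylase of lignin precursors, had no domain of either mark. CYP84A4, which takes part in making arabidopyrones, had 15.7%, and TT7, the flavonoid hydroxylase, had 10.7%. C4H and FAH1, enzymes of the main lignin route, were not touched.

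Of the CYP78A genes, CYP78A10 was covered, CYP78A6, which raises seed size, had 40.0%, and CYP78A7 had 26.1%. CYP78A5, known as KLU for its effect on organ size, had 14.7%, CYP78A9 had 14.3% and CYP78A8 had none. None of the 6 was touched by 5mC.

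Glucosinolate and camalexin genes, 12 of them members, had 6 of 13 touched by H3K27me1 (46.2%), beside 35.3% of all members. None was covered or touched by 5mC, and so few genes leave little room for either, since the shares over all members were 9.77 and 10.2%. CYP83B1 of the indole glucosinolate core pathway had 30.1%, CYP79B3, which turns tryptophan into its aldoxime, had 20.1%, and CYP79F1 of the aliphatic branch had 26.6%. CYP81F2 and CYP81F4, which modify indole glucosinolates, had 29.1 and 14.0%. PAD3, the last enzyme of camalexin synthesis, had 16.0%. The close copies CYP79B2 and CYP79F2 had none.

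Barrier polymer genes had 5 of 11 touched and none covered by H3K27me1, beside 35.3 and 9.77% of all members. A difference was not tested on so few genes. The touched ones were CYP77A6 (28.6%) and CYP86A4 (12.2%) of flower cutin, CYP86A1 (25.9%) and CYP86B1 (21.2%) of suberin, and CYP703A2 (17.8%) of sporopollenin. In the 5 hormone lists together, H3K27me1 touched 4 of 25 genes (16.0%), beside 35.3% of members and 21.5% of like genes. These sets are not alike, since the lists include genes outside the symbol rule. Members were 2 of 8 brassinosteroid genes, 3 of 5 gibberellin genes and 3 of 5 genes listed under jasmonate. All 4 touched genes were members, so that the share among listed hormone members alone was above 16.0%. None of 8 brassinosteroid genes had a domain of either mark. So few genes leave little room for a lower share, since like genes were touched to 21.5% by H3K27me1 and 11.4% by 5mC. The 4 touched hormone genes were CYP707A1 (33.3%), CYP94B3 (46.8%), CYP711A1 (11.8%) and CYP714A2 (9.96%). CYP707A1 is from the 4 abscisic acid hydroxylases. CYP94B3, which inactivates the active jasmonate, is from 5 genes listed under jasmonate, a broad list that includes HPL1. CYP711A1, the strigolactone gene MAX1, is from 3 cytokinin and strigolactone genes, and CYP714A2 from 5 gibberellin genes. CYP714A2 also had 24.9% in 5mC, and the cytokinin hydroxylase gene CYP735A1 had 4.19% in 5mC alone. The iron and defence list had CYP82C4 (13.4%), which makes a coumarin under iron deficiency, as the touched gene of 4, beside 35.3% of all members. Of 10 redox partners, which include ATR1 and ATR2, none was touched by H3K27me1, and the reductase-like AT3G02280 had 19.8% in 5mC. Here too, 10 genes leave little room for a share below the 21.5% of like genes touched by H3K27me1.

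By chromosome, H3K27me1 touched 37.8% of the P450 genes on the arms of chromosome 1, against 21.6% of like genes, and 38.7, 41.1 and 35.5% on chromosomes 2, 3 and 5, against 20.3, 20.9 and 21.9%. On chromosome 4 the shares were close, with 10 of 42 P450 genes touched (23.8%), against 22.6% of like genes. That chromosome holds CYP705A1, CYP705A2, CYP705A3 and most CYP702A genes, none of them touched by H3K27me1. Chromosome and subfamily were thus not told apart. Of the 10 pericentromeric members, 3 were touched by H3K27me1, namely CYP94D1 (54.4%), CYP705A6 (42.7%) and CYP81D1 (20.2%), and 2 by 5mC. A pseudogene was the next gene on at least 1 side of 25 P450 genes on arms (12.2%), against 6.64% of like genes. The share was 12.3% for the P450 genes touched by H3K27me1 and 12.1% for the others.

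Of 15 protein-coding genes with a P450 name only among their synonyms, H3K27me1 touched 3 (20.0%), beside 35.3% of members and 21.5% of like genes, and covered 1, UNE9 (CYP77A7) at 82.8%. A further 6 genes with a P450 symbol are annotated as pseudogenes and were not counted. Among them CYP51G2 had 46.0% in H3K27me1 and 52.4% in 5mC, where its coding relative CYP51G1 had 18.4% in 5mC alone.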

How the data were processed

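Samples were grouped by their labels. Bowtie (read alignment), SICER (calling of broad domains) and TAIR10 are named, per the submitters' processing notes. Not given in the sources used here are versions, thresholds, the use of inputs, the pooling of replicates and the treatment of reads with several matches. Each deposited line holds a chromosome, a start, an end and the authors' count of reads in the domain, not normalized, and the lowest count was 114 for H3K27me1 and 97 for 5mC. The sums of reads in domains are not library depths, which were not used here. Starts count from 0, and positions are printed counting from 1.

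The gene table was that of RefSeq for TAIR10.1, and its coordinates are not printed. As a check against the TAIR10 lists, pseudogenes overlapped domains most at offset 0 in 10 of 10 tests by chromosome and mark, with offsets up to 2000 bp tried in steps of 50 bp. Bases of each gene in each list were counted with Python 3.11.15, numpy 2.4.6 and pandas 2.3.3, and the counting was tested on simulated data. Pericentromeres were runs of 100 kb windows around the lowest protein-coding coverage, averaged over 11 windows, with under 0.7 of the chromosome's median. Like genes were arm genes between the 5th and 95th percentile of the lengths of P450 genes on arms.

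Members, lists and tests were chosen with earlier results of these data known. Values are set beside the background, with no test. Genes were named by rule: the 15 highest for each mark, those with at least 30% in both, touched pathway genes, and touched members of the 6 largest clusters (7 with a tie), which gave 64 genes. Other cluster genes and genes outside the symbol rule were named after their values were seen. Alternatives changed the limit on cover, the domains used, the members, the region class, the cluster gap and the background. No sequences were used.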

Additional observations from a re-analysis of the deposited data

How the results depend on the processing

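Of 38 alternative values for 10 results, 19 stayed close to the reported value and 19 moved. A count was called close within a ratio of 1.5, and a percent within a binomial interval around the reported value. For shares of bases that interval takes each base as independent, which neighbouring bases are not, so that it is too narrow. The 2 rules differ in strictness, and the tally is no measure of closeness on 1 scale. The number of P450 genes covered by H3K27me1, 21 as reported, was 4 with a limit of 80% of the gene, 45 with 30%, 10 with domains of at least 1000 bp and 4 with the denser 50% of domains, by reads per kb. The number touched by H3K27me1 was 12 and 25 with these restricted lists, in place of 76, and that touched by 5mC was 3 and 14, in place of 22. The P450 gene covered by 5mC remained 1 in every alternative tried except the limit of 30%, which gave 4. The share of P450 bases in H3K27me1 domains was 3.60% with domains of at least 1000 bp, 3.27% with the denser domains and 11.6% with genes known by a synonym added, in place of 12.3%. For 5mC it was 0.590, 1.42 and 1.72%, in place of 1.89%. Like genes were covered by H3K27me1 to 5.95% when all protein-coding genes were weighted by length and region and to 6.11% as all arm genes, in place of 4.92%. For 5mC these were 1.64 and 1.86%, in place of 0.769%. Fewer domains and a longer or shorter gene list give such changes by construction. With pericentromeres of fixed width, a choice added for like genes after seeing the data, their shares were 4.98 and 0.835%. The 39 clusters became 37 with gaps of 5 or 30 kb, and 17 clustered members stayed covered by H3K27me1. No paired analysis was possible because each mark has 1 list and no value per replicate, and no replicate could be left out for the same reason. Widths are multiples of 300 bp (H3K27me1) and 150 bp (5mC), so that shorter enriched stretches could not be seen.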
